A study of Mus musculus with 11 samples.

Results

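The promoters of 10 mouse genes that encode Hsp90 and Hsp70 co-chaperones and heat shock factors were examined by their read counts in a chromatin immunoprecipitation (ChIP) experiment for the transcription factor ST18. The genes are St13, Chordc1, Ahsa1, Stip1, Cdc37, Ptges3, Fkbp4, Bag3, Hsf1 and Hsf2, and all 10 were found by symbol among the 21881 promoter windows of the study. They were selected on gene family in a set that was drawn up with the ST18 over input values of these windows known. Their ST18 over input values are therefore a description and carry no test. The study asks where ST18, a zinc finger factor of the MYT1 family, sits in the genome of cultured cells that its labels name TN and type as brain cells, using an antibody to an HA tag. Of its 11 samples, 2 are ST18 ChIP libraries and 1 is input, the genomic DNA that was not immunoprecipitated. The molecule tag of the input sample reads HAChIP like that of the ChIP samples, whereas its title and description say input. The protocols given with all samples describe cortex of embryos electroporated at E12.5 and collected at E16.5, which is the source of 4 ST18 knockdown and 4 control RNA samples that were not analysed here. The sources used here do not say how the tagged ST18 was expressed in the TN cells.

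Heat shock proteins of the Hsp70 and Hsp90 classes fold other proteins in cycles driven by ATP, and co-chaperones set the pace of these cycles, deliver client proteins or pass clients from Hsp70 to Hsp90. Heat shock factors are the transcription factors of the heat shock response. They bind heat shock elements, in which the unit GAA alternates with its complement TTC at fixed spacing, and raise the transcription of chaperone and many co-chaperone genes when unfolded proteins accumulate. Many of these genes are also transcribed at a high basal level in unstressed dividing cells.

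The promoter table held 438960 ST18 reads and 160443 input reads, in 1 column each, so that no value has a replicate. Each window was 1000 bp wide. The median window held 20 ST18 and 7 input reads, and the ratio of all promoters was 2.74 ST18 reads per input read. The authors' log2 enrichment compares both columns after scaling, with a pseudocount of 16 added to each, and had a median of 0.04 over all windows (interquartile range −0.10 to 0.19). Beside it, a fold is given for each window, which divides its ST18 to input ratio by that of all promoters, together with its exact binomial interval at the 95% level. These intervals cover counting error only.

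Of the 10 genes, 4 reached a log2 enrichment of 0.58 (1.5-fold on that scale), namely St13, Chordc1, Fkbp4 and Stip1, against 1.15% of all windows. None lay at or below −0.58, against 0.219% of all windows. The log2 enrichment of 9 of the 10 was above the median of all windows, as in 49.6% of all windows, and the exception was Hsf2. The median of the 10 was 0.37, and summed over the 10 windows 429 ST18 and 81 input reads gave a 1.94-fold ratio (95% interval 1.52 to 2.49). St13 and Chordc1 had been noted among the highest windows of the table before the set was drawn up. Without them the other 8 windows had a summed fold of 1.57 (1.19 to 2.09) and a median log2 enrichment of 0.30. Since the same values were known when the genes were chosen, nothing is read from these shares.

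Both columns varied among the 10 windows, the ST18 column over the wider range. ST18 counts ran from 14 to 80 reads with a median of 42.5, a 5.71-fold range. Input counts ran from 4 to 13 with a median of 8.5, a 3.25-fold range. Among the 17677 windows with 4 to 13 input reads, 0.668% reached a log2 enrichment of 0.58.

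**Figure D1:**
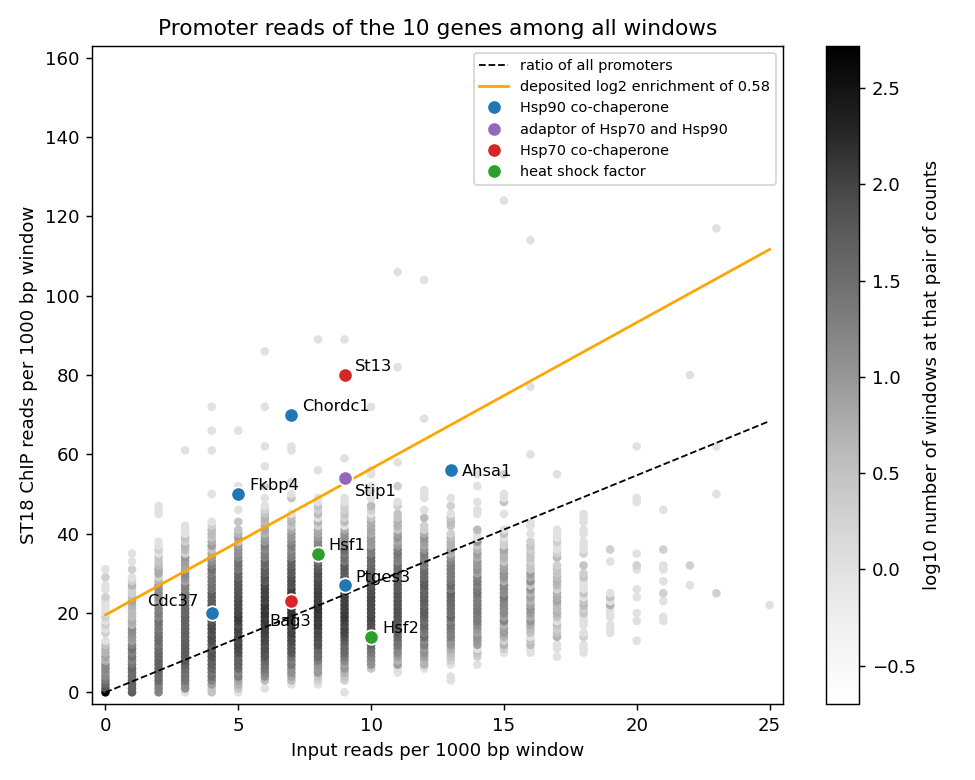
ST18 ChIP reads (vertical axis) against input reads (horizontal axis) per 1000 bp promoter window, with grey points for all windows shaded by how many share that pair of counts, and coloured points for the 10 genes by role. The dashed line is the ratio of all promoters and the orange line a log2 enrichment of 0.58; St13, Chordc1, Fkbp4 and Stip1 lie on or above the orange line, Hsf2 lies below the dashed line, and 9 windows beyond 25 input or 160 ST18 reads are not drawn.

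Chordc1 led the Hsp90 co-chaperones. It encodes a zinc-binding protein with CHORD and CS domains that binds Hsp90. With 70 reads in the ST18 column and 7 in the input column, its window had a fold of 3.66 (1.68 to 9.42) and a log2 enrichment of 0.95, and ranked 16th of all windows. More ST18 reads than in 99.9% of windows stood beside an input count at the median of 7. The sequence upstream of its transcription start, from RefSeq on GRCm38.p6, is shown because the promoter closes with the first of a run of heat shock units, in capitals, at chr9:18292017-18292266 on the plus strand.
Chordc1: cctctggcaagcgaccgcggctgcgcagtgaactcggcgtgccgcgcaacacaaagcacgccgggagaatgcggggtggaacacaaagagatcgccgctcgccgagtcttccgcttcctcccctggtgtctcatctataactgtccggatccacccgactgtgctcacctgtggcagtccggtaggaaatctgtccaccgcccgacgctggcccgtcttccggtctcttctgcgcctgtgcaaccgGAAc

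The run continued across the start into the first bases of the transcript. It had 5 units from position −4 to position 19, counting the start as 1, and was the longest run among the 8 of the 10 genes with an entry in the promoter sequences. The 30 bases that hold it lie at chr9:18292259-18292288, with the units in capitals.
Chordc1 run: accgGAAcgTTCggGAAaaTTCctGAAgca
Read from 4 units upwards, such runs were present in 4 of the 12270 windows whose gene had a single RefSeq promoter sequence (0.0326%). A further pair of units lay at positions 34 to 41.

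Fkbp4 encodes FKBP52, a peptidyl-prolyl isomerase that joins Hsp90 in steroid receptor complexes. There were 50 ST18 and 5 input reads in its window, for a fold of 3.66 (1.47 to 11.7) and a log2 enrichment of 0.79. It ranked 34th. The input count was below the median, and the interval was the widest of the 4 genes past 0.58. Its promoter at chr6:128438657-128438906 on the minus strand is shown for 1 pair of heat shock units, in capitals, at positions −151 to −144.
Fkbp4: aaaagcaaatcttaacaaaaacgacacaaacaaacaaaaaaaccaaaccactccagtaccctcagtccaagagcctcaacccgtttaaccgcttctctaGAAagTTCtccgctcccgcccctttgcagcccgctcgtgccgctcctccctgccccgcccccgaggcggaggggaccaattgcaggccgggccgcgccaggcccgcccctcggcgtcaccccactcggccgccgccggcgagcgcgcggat
That pair overlaps a match to AAGTT, the core sequence of the MYT1 family, at positions −149 to −145.

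The other 3 Hsp90 co-chaperones lay lower. Ahsa1, which speeds the ATPase of Hsp90, held 56 ST18 and 13 input reads, for a log2 enrichment of 0.42 and a fold of 1.57 (0.850 to 3.14). Its ST18 count was above that of Stip1 and Fkbp4, and its input count was the highest of the 10. Cdc37, which brings protein kinases to Hsp90, held 20 against 4 reads, at 0.27 and 1.83-fold (0.612 to 7.35). An ST18 count at the median of all windows stood here beside the lowest input count of the 10. Ptges3 (p23), which stabilises the ATP-bound state of Hsp90, held 27 against 9 reads, at 0.11 and 1.10-fold (0.501 to 2.65). The intervals of Ahsa1, Cdc37 and Ptges3 all held 1, and no enrichment could be detected for them at this depth.

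Stip1 (Hop) is the adaptor that links Hsp70 to Hsp90. It held 54 ST18 and 9 input reads, for a log2 enrichment of 0.60 and a fold of 2.19 (1.07 to 5.05), and ranked 204th. Stip1 was the member nearest the threshold: the value was 0.52 with the columns scaled to their totals and 0.56 after centring on the median of all windows, both below 0.58. Its promoter at chr19:7040027-7040276 on the minus strand is shown with 4 CCAAT boxes in capitals, the motif bound by NF-Y. It held no pair of heat shock units in the 300 bases searched.
Stip1: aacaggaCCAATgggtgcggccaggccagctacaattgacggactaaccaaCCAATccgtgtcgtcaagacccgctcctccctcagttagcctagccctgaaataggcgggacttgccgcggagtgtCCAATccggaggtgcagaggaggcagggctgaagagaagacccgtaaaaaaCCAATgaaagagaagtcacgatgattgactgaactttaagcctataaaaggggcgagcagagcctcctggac
Of the 12270 promoter sequences, 4.08% held 3 or more CCAAT boxes on either strand, and Stip1 was the only one among the 8 genes searched.

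The Hsp70 co-chaperones in the set were far apart. St13 (Hip), which stabilises the ADP-bound state of Hsp70, held 80 ST18 and 9 input reads, for a log2 enrichment of 0.95 and a fold of 3.25 (1.63 to 7.36). It had the most ST18 reads of the 10 and ranked 15th, just after Hspd1 at 0.96 (114 against 16 reads) and before Chordc1 and Csrp2, the latter at 0.95 (46 against 2 reads). Bag3, a nucleotide exchange factor of Hsp70 that acts in selective autophagy and is a well-known target of heat shock factors, held 23 against 7 reads. Its log2 enrichment was 0.14 and its fold 1.20 (0.499 to 3.31), an ST18 count close to the median of all windows.

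Neither heat shock factor gene reached 0.58. Hsf1, the main activator of the heat shock response, held 35 ST18 and 8 input reads, for a log2 enrichment of 0.33 and a fold of 1.60 (0.729 to 3.99). Hsf2, which acts in development and forms mixed trimers with Hsf1, held 14 against 10 reads, the fewest ST18 reads of the set. Its log2 enrichment was −0.26 and its fold 0.512 (0.211 to 1.29), with 8.15% of windows lower. Both intervals included 1. The Hsf2 promoter at chr10:57486135-57486384 on the plus strand is shown as the lowest of the set, with its 2 CCAAT boxes, 1 on each strand, in capitals.
Hsf2: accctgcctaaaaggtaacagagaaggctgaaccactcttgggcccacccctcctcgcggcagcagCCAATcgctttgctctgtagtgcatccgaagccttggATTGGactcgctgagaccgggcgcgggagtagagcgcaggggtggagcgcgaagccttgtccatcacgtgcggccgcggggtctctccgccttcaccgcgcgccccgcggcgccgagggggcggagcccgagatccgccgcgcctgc

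Taking the genes by role, the 5 Hsp90 co-chaperones had a summed fold of 2.14 (1.52 to 3.11), of which Chordc1 and Fkbp4 gave 120 of the 223 ST18 reads. Without them Ahsa1, Cdc37 and Ptges3 stood at 1.45 (0.934 to 2.32), an interval that includes 1. Chordc1 and Fkbp4 had the highest values of the 5, so that a lower fold follows from leaving them out. The 2 Hsp70 co-chaperones had a summed fold of 2.35 (1.38 to 4.27), of which St13 gave 80 of the 103 ST18 reads. The 2 heat shock factors together stood at 0.995 (0.569 to 1.81). The interval of single windows lay above 1 in 4 of the 10 genes, against 2.37% of all windows, and below 1 in none, against 3.24%. Of the 45 pairs that the 10 genes form, 3 had intervals that did not overlap: St13, Chordc1 and Fkbp4, each above Hsf2. Overlapping intervals do not show that windows are alike, and no pair was tested for a difference. The share of such pairs among all windows was not computed. St13, Chordc1 and Fkbp4 were the highest and Hsf2 the lowest of a set drawn up with these values known. Nothing is therefore read from the count of pairs.

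**Figure D2:**
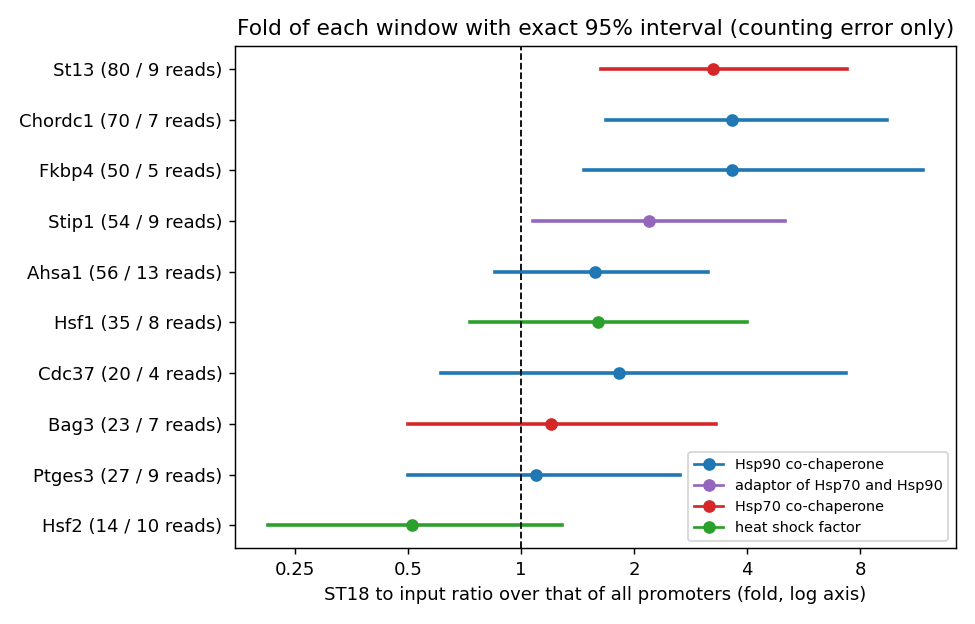
ST18 to input ratio of each gene's window divided by that of all promoters (fold, log axis), with the ST18 and input reads beside each gene name. Points are folds, bars exact 95% intervals for counting error, and the dashed line is 1; the intervals of St13, Chordc1, Fkbp4 and Stip1 lie above 1 and those of the other 6 genes include it.

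A gene that starts close by can place its reads in the same window. Xpnpep3, a mitochondrial aminopeptidase gene, starts 444 bases from one end of St13 on GRCm38.p6, and its own window held 82 ST18 and 11 input reads at a log2 enrichment of 0.87. Reads of St13 and Xpnpep3 cannot be told apart where the windows overlap. Vipas39, entered in the table as Vipar, starts 442 bases from Ahsa1 on the other strand, and its window held 21 against 14 reads at −0.29. The windows of Ahsa1 and Vipas39 thus held 56 and 21 ST18 reads beside 13 and 14 input reads, a difference that was not tested. Chordc1, Cdc37 and Hsf2 each had 1 gene starting within 1000 bases that matched no window (Gm51667, Gm35977 and 4930467K11Rik). The placing of a window around the start was not stated in the sources used here.

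The promoter sequences were then searched for the motifs that bear on these genes. A sequence of 250 bases before to 50 after the RefSeq start was found for 8 of the 10 genes, all but St13 and Hsf1. A pair of heat shock units, GAANNTTC or TTCNNGAA, each its own reverse complement, was present in 4 of the 8, against 13.8% of the 12270 promoters. The pairs are shown because 2 of the 4 genes, Chordc1 and Fkbp4, were past 0.58, and the other 2, Cdc37 and Bag3, were not.
Fkbp4 pair: ccgcttctctaGAAagTTCtccgctcccgc
Cdc37 pair: tcggcgggaacTTCcaGAAggcctcaccac
Bag3 pair: ccaagttctctggatgggaccaGAAgtTTC
Chordc1 second pair: cagtaccggcggcTTCcgGAAgctagctgc
These stretches lie at chr6:128438789-128438818 and chr9:21150086-21150115 on the minus strand and at chr7:128523603-128523632 and chr9:18292287-18292316 on the plus strand of GRCm38.p6, with the units in capitals. The Bag3 pair lay after the start, at positions 43 to 50, and the Cdc37 pair at −170 to −163. In the 250 bases before the start alone, 2 of the 8 genes held a pair, Cdc37 and Fkbp4, against 11.9% of promoters.

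Heat shock units were next set against the enrichment over all promoters. Of the 1695 promoters with a pair, 1.30% reached a log2 enrichment of 0.58, against 1.01% of the 10575 without, and the medians were 0.02 and 0.04. Of the 61 promoters with 3 or more units in a row, 3 reached 0.58 (4.92%), against 1.03% of the others. Those 3 were Hspe1, Chordc1 and Prkrip1. The 4 promoters with 4 or more units included 2 past 0.58, Hspe1 and Chordc1, against 1.04% of those without such a run. The others, Arpc2 at −0.14 (21 against 11 reads) and Fam149a at −0.32 (12 against 10 reads), lay below the median of all windows. The cut at 4 units was not planned, and Chordc1 had been noted as high beforehand. Nothing is read from this share, and a link between such runs and the enrichment was not tested.

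The MYT1 family core AAGTT, on either strand, was present in 5 of the 8 genes (Fkbp4, Stip1, Ahsa1, Cdc37 and Bag3), against 37.6% of promoters. Over the 12270 promoters the share past 0.58 was 0.736% with this core and 1.24% without. That share also differed with base composition, given below, which was not held equal here. The difference was not tested. Chordc1, the highest of the 8, did not hold AAGTT in the 300 bases searched. CCAAT on either strand was present in 4 of the 8 (Fkbp4, Stip1, Cdc37 and Hsf2), against 39.7% of promoters. In the Fkbp4, Cdc37 and Bag3 promoters an AAGTT match overlapped the heat shock pair.

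**Figure D3:**
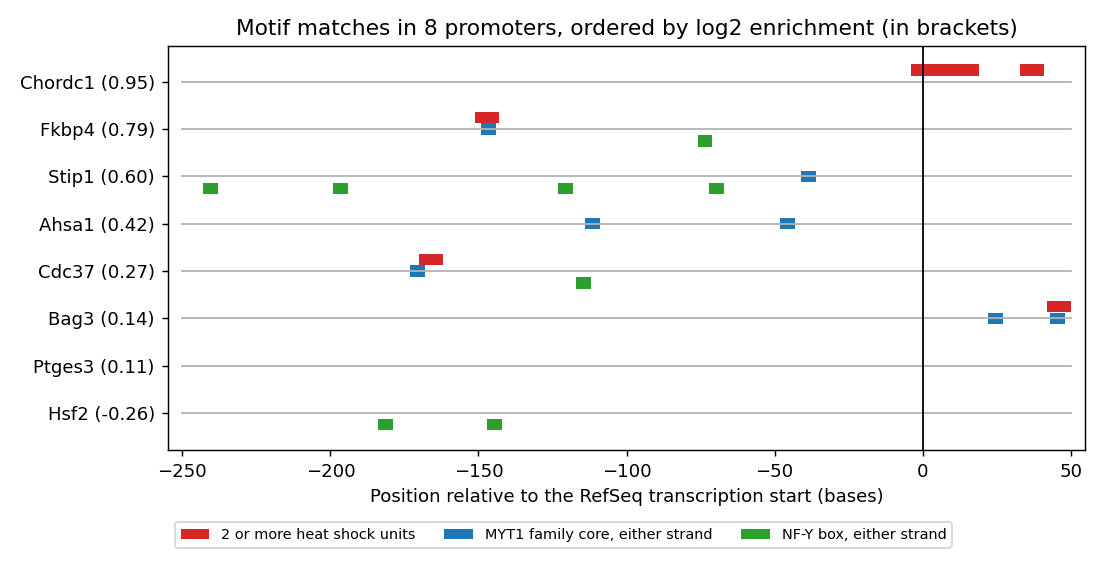
Positions of motif matches in the promoters of the 8 genes with a RefSeq sequence, in bases from the transcription start (vertical line), ordered from the highest log2 enrichment (Chordc1, 0.95) to the lowest (Hsf2, −0.26). Red bars are runs of 2 or more heat shock units, blue bars the MYT1 family core and green bars the NF-Y (CCAAT) box; the run of 5 units spans the start of Chordc1, and Stip1 has 4 green bars and no red one.

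The share of windows past 0.58 differed with base composition. Promoters were put into 5 bands of about equal number by GC content. In band 1, up to 45.7% GC, 0.121% of windows reached 0.58, against 1.80% in band 4 (60.3% to 66.7% GC). Chordc1, Fkbp4, Cdc37 and Bag3 were in band 4, at 62.7%, 65.3%, 65.3% and 64.3% GC. Stip1 and Ahsa1 were in band 3, where 1.21% reached 0.58, and Ptges3 and Hsf2 in band 5, with 1.62%. The part of base composition in the values of the 10 genes was not tested.

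Paralogs of the 10 genes, named after their values were seen, lay on both sides of the median of all windows. Ahsa2, the paralog of Ahsa1, held 33 ST18 and 2 input reads, for a log2 enrichment of 0.71 and a fold of 6.03 (1.54 to 51.9). Fkbp5 (FKBP51), the closest relative of Fkbp4, held 18 against 10 reads at −0.16, or 0.658-fold (0.288 to 1.60). Its interval overlapped that of Fkbp4 only between 1.47 and 1.60. Itgb1bp2 (melusin), the muscle paralog of Chordc1, held 6 against 4 reads at −0.12, and Cdc37l1, the paralog of Cdc37, held 15 against 8 reads at −0.12. The BAG family relatives of Bag3 were all above the median of all windows, as were 49.6% of all windows. Bag2 stood at 0.56, Bag4 at 0.36, Bag1 at 0.23, Bag6 (entered as Bat3) at 0.18 and Bag5 at 0.06. Among them only the fold interval of Bag2 (1.03 to 6.05) lay above 1, and the others included it. Among the heat shock factors, Hsf4 stood at 0.04 and Hsf5 at 0.06, each with 9 input reads. Hsf3 held 5 against 2 reads at 0.002, below the median of all windows.

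The wider set of co-chaperones was taken from lists written with earlier results of these data known. Of 22 other Hsp90 co-chaperones, 1 reached 0.58 (Ahsa2), 9 were above the median of all windows and the list median was −0.05. Cacybp, a binding partner of the Siah1 ubiquitin ligase, lay just under the threshold at 0.57 with 56 against 10 reads, and Nudcd3 was lowest at −0.27. Of 11 other Hsp70 co-chaperones none reached 0.58 and 9 were above the median of all windows, with a list median of 0.23 and a summed fold of 1.34 (1.05 to 1.73). They ran from Bag2, an inhibitor of the ubiquitin ligase CHIP, at 0.56 (44 against 7 reads) to Tomm70a, the mitochondrial import receptor, at −0.18. Of 7 other heat shock factors and their binding proteins none reached 0.58, and the highest was Hsf2bp at 0.23 and the lowest Hsfy2 at −0.23. Over these 40 windows together, 1 reached 0.58, and the summed fold was 1.08 (0.943 to 1.23).

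The chaperones that these proteins serve are given for comparison. Of 11 cytosolic Hsp70, Hsp110 and Hsp90 windows, 4 reached 0.58, with a list median of 0.25: Hsph1 at 1.21, Hspa8 at 1.05, Hsp90ab1 at 0.82 (61 against 7 reads) and Hsp90aa1 at 0.70 (117 against 23 reads). Hspa4 was lowest at −0.39. Of 11 mitochondrial chaperone and protease windows 3 reached it (Hspe1, Hspd1 and Hspa9), with a median of 0.31, and Clpp was lowest at −0.18. Of 9 subunits of the cytosolic chaperonin 2 reached it (Cct3 and Cct6a), with a median of 0.25, and Cct6b was lowest at −0.02. The difference between the 10 genes and these lists was not tested, since all were chosen with the values known.

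Values of 4 heat-induced genes, chosen after they were seen, are given next to those of the remaining list. All 4 lay below 0.58 and do not stand for heat shock genes in general. Hsph1 (1.21), Hsp90aa1 (0.70) and Dnajb1 (0.64) lay above it. Hspa1a and Hspa1b, the stress-induced Hsp70 genes, held 25 against 6 and 15 against 5 reads, at 0.25 and 0.07. They are near-identical copies, so that reads may be shared or lost between them. Hspb1 (Hsp25) held 21 against 6 reads at 0.16, and Cryab held 13 against 8 at −0.17. Among the 20 small heat shock proteins and other heat shock genes, 2 reached 0.58, both J-domain partners of Hsp70: Dnaja1 at 0.90 (62 against 6 reads) and Dnajb1 at 0.64 (49 against 7 reads). The collagen chaperone gene Serpinh1 followed at 0.52, Hspb9 was lowest at −0.23, and the list median was 0.16. Hspa1a, Hspa1b and Hspb1 each held a pair of heat shock units in their promoter sequence. Over all 58 matched promoters of the comparison lists, 12 held a pair (20.7%). Of the 58, 4 reached 0.58: Hspe1 and Cct6a with a pair, and Ahsa2 and Cct3 without. The other windows of these lists past 0.58 were not among the promoters searched. These were Hsph1, Hspa8, Hsp90ab1, Hsp90aa1, Hspd1, Hspa9, Dnaja1 and Dnajb1.

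**Figure D4:**
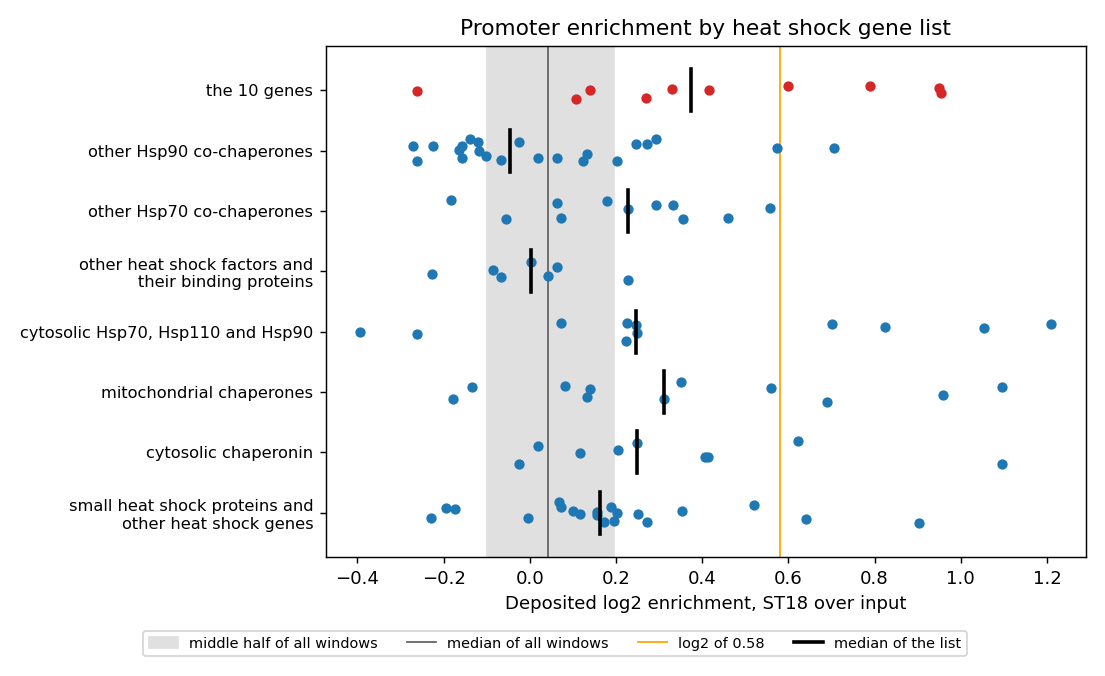
Deposited log2 enrichment, ST18 over input, of each gene's window (points) by list, with the 10 genes in red and the list median as a black bar. The grey band is the interquartile range of all windows (−0.10 to 0.19) and the orange line a log2 enrichment of 0.58; 4 of the 10 genes and 1 of the 40 other co-chaperones, heat shock factors and their binding proteins lie beyond the line.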

How the data were processed

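Promoter read counts were analysed for the ST18 ChIP (1 deposited column for 2 labelled libraries; which of them it holds was not stated) and its input. Counts per 1000 bp window and a log2 enrichment were deposited by the authors. Per the submitters' processing notes the build was mm9 and the tools were TopHat2 2.0.8, HTSeq 0.5.4p1, edgeR, Bowtie and MACS2 2.0.10.20120913, with no role given. The deposited log2 value was recomputed as the log2 of (0.406 times ST18 plus 16) over (input plus 16), within 1e-06 in all 21881 windows. It pulls windows with few reads towards 0.

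Folds with Clopper-Pearson 95% intervals were computed with Python 3.11.15 and scipy 1.17.1. The scripts were tested on simulated data, in which only windows with more reads than the median window were raised, by a single known fold. Raised windows with few reads and smaller folds were not covered. No replicate was available, so no test between groups was made. With 160443 input reads in all, a single window holds few, which sets the width of the intervals. Since reads carry no molecular identifiers, they may not be independent molecules.

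The members, lists and motifs were chosen with earlier results of these data known. Named were the members, their neighbours, the windows next in rank to the highest member, and in each list the highest, the lowest and every window at or beyond 0.58. Paralogs, 4 heat-induced genes, Cacybp, Serpinh1 and the promoters with 3 or more units were named after their values were seen. RefSeq promoter sequences (GRCm38.p6) matched 14683 windows by symbol, of which the 12270 with a single sequence were used. The peak list, in mm9, was not used here.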

Additional observations from a re-analysis of the deposited data

How the results depend on the processing

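The number of the 10 genes at a log2 enrichment of 0.58 was 4 with the deposited values. It was 7 with a pseudocount of 1, where 24.1% of all windows passed, and 0 at a threshold of log2 1, which 0.0548% of windows reached. It was 4 with a pseudocount of 8 (6.98% of all windows passed), 3 with scaling to the column totals (0.608%), 3 after centring (0.782%), 3 without windows of 5 or fewer input reads (0.332% of those kept) and 5 in the highest 10% of windows. The median of the 10 was 0.37 and became 0.81 with a pseudocount of 1, where the median of all windows was 0.12. Under the other settings it lay between 0.30 and 0.51. All 10 genes kept their sign with scaling to the column totals and after centring. A change of pseudocount cannot alter the sign. Of the 91 windows in the other lists 12 reached 0.58, and this became 35 with a pseudocount of 1, 4 at log2 1 and 22 in the highest 10% of windows. The 4 genes with a pair of heat shock units became 2 in the 250 bases before the start and 1 with 3 or more units in a row. These changes in counts follow from how the settings were built. Peaks at the 10 genes were not examined, as no gene positions of their build were used here. No paired analysis was possible because ST18 reads come in 1 column without a replicate number, and the RNA samples were not analysed here. For the same reason no fit without a replicate could be made.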

Other observations

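Among the 61 promoters with 3 or more heat shock units in a row, the highest windows were picked out after their values were seen. Hspe1, the mitochondrial co-chaperonin, led with a run of 4 units and 124 ST18 against 15 input reads (log2 enrichment 1.10), followed by Chordc1. Prkrip1 came next with 3 units and 33 against 2 reads (0.71), and then Tra2b, a splicing regulator, with 3 units and 37 against 6 reads (0.49). The median of the 61 was 0.02, against 0.04 for the promoters without such a run, so that most of these promoters were not set apart.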
